A study of Ambystoma mexicanum with 8 samples.

Results

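Transcripts named for immunoglobulin chains, for the polymeric immunoglobulin receptor and for mannose-binding lectin were followed through 8 RNA-seq libraries of axolotl (Ambystoma mexicanum) limb stump. There were 9 such transcripts among 91843, 7 of them chains. They were taken by name from the 912 entries of the study's table of differential transcripts. Each was then identified as the assembled contig whose mean FPKM plus 1 equalled the printed mean within 1e-06 in both groups. FPKM is the fragments counted on a transcript, divided by its length and by the depth of the library. The study added a pseudocount of 1 to its FPKM values. The printed means therefore lie 1 above those given here, and the printed fold changes are smaller. The 9 contigs matched with a difference of 0, while the next closest contig missed by between 0.0198 FPKM for the lectin and 73.1 FPKM for the mu chain. The table lists transcripts that differed in either direction between the same 2 groups of libraries. A difference between these groups is thus how the 9 members were chosen. Their group differences are therefore given as a description, with no p-value for a member.

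The libraries came from wild-type leucistic animals. The repeatedly amputated limbs (condition Multi-amp, columns MR14, MR2, MR5 and MR6) had failed to regenerate after 5 earlier amputations and received a 6th. The control limbs (condition Control, columns Control1, Control3, Control4 and Control6) belonged to siblings matched for age and size and received 1 amputation. Tissue next to the cut was taken in both groups at 3 days post-amputation, with 4 limbs per group from separate animals. The libraries held 15596527 to 17980271 counts in repeatedly amputated limbs and 16765785 to 18437103 counts in control limbs.

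An immunoglobulin is built from paired heavy and light chains. The variable region of each chain, which binds antigen, is encoded by a gene segment joined in the genome of each B cell, so every B-cell clone carries its own pair. The constant region of the mu heavy chain defines IgM, the class made first by B cells and secreted in quantity by plasma cells. The polymeric immunoglobulin receptor carries IgM and IgA across epithelia, and mannose-binding lectin binds sugars on microbes and starts the lectin pathway of complement. These roles are known from mammals. The entry names give the closest protein in SwissProt, and the species in the name is that of the protein, not of the RNA. Chain types, kappa and lambda among them, are taken from these names alone. The 7 chain transcripts comprised the constant region of the mu chain (IGHM_SUNMU), 3 heavy chain variable regions (HVM46_MOUSE on 2 contigs, and HV02_XENLA), 1 kappa variable region (KV403_HUMAN) and 2 lambda variable regions (LV603_HUMAN and LV302_HUMAN). The receptor was PIGR_BOVIN and the lectin MBL2_MOUSE.

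The 7 chains together held 270, 184, 148 and 272 CPM (a share of the counts of the library, in counts per 1000000) in repeatedly amputated limbs, against 909, 544, 920 and 706 CPM in control limbs. The highest repeatedly amputated limb thus lay below the lowest control limb. The means were 218 ± 62.5 CPM in repeatedly amputated limbs and 770 ± 180 CPM in control limbs (SD, n = 4 each), a difference of -1.83 on the log2 scale. The heavy chains made up nearly all of this sum, at 211 ± 61.7 CPM in repeatedly amputated limbs and 726 ± 195 CPM in control limbs. The 3 light chains held 7.07 ± 2.11 CPM in repeatedly amputated limbs and 43.9 ± 43.4 CPM in control limbs. The 2 sums do not compare the amounts of heavy and light chain RNA. The light chain members are variable regions with effective lengths of 152 to 316 bases, and no light chain constant region is among them. The constant region of the mu chain has an effective length of 1837 bases. The mu chain transcript alone gave 92.7% to 96.0% of the chain counts in repeatedly amputated limbs and 80.6% to 94.3% in control limbs. Without it the difference in the chain sum was -2.64 on the log2 scale. In bulk tissue, fewer cells of a type and less RNA per cell cannot be told apart.

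Of the 9 members, 5 had no overlap between the groups in FPKM, all of them chains. For comparison, 3.07% of the 32757 transcripts tested were lower in repeatedly amputated limbs without overlap in CPM, and 6.36% were without overlap in either direction. Of these transcripts 50.8% had a negative log2 fold change, with a median of -0.01. All 8 members that passed the filter on low counts had a negative one. At a false discovery rate (FDR) of 0.05, edgeR's quasi-likelihood test called 0 of these 8 members, while it called 0.0122% of all transcripts tested in either direction and 0.00611% as lower. The same test gave an unadjusted p under 0.05 for 8 of 8 members, against 11.1% of all transcripts tested. edgeR's exact test called 6 members and DESeq2's Wald test 7, against 0.287% and 0.601% of all transcripts called lower by these tools. The members were chosen on this contrast, so nothing is read from these counts.

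**Figure D1:**
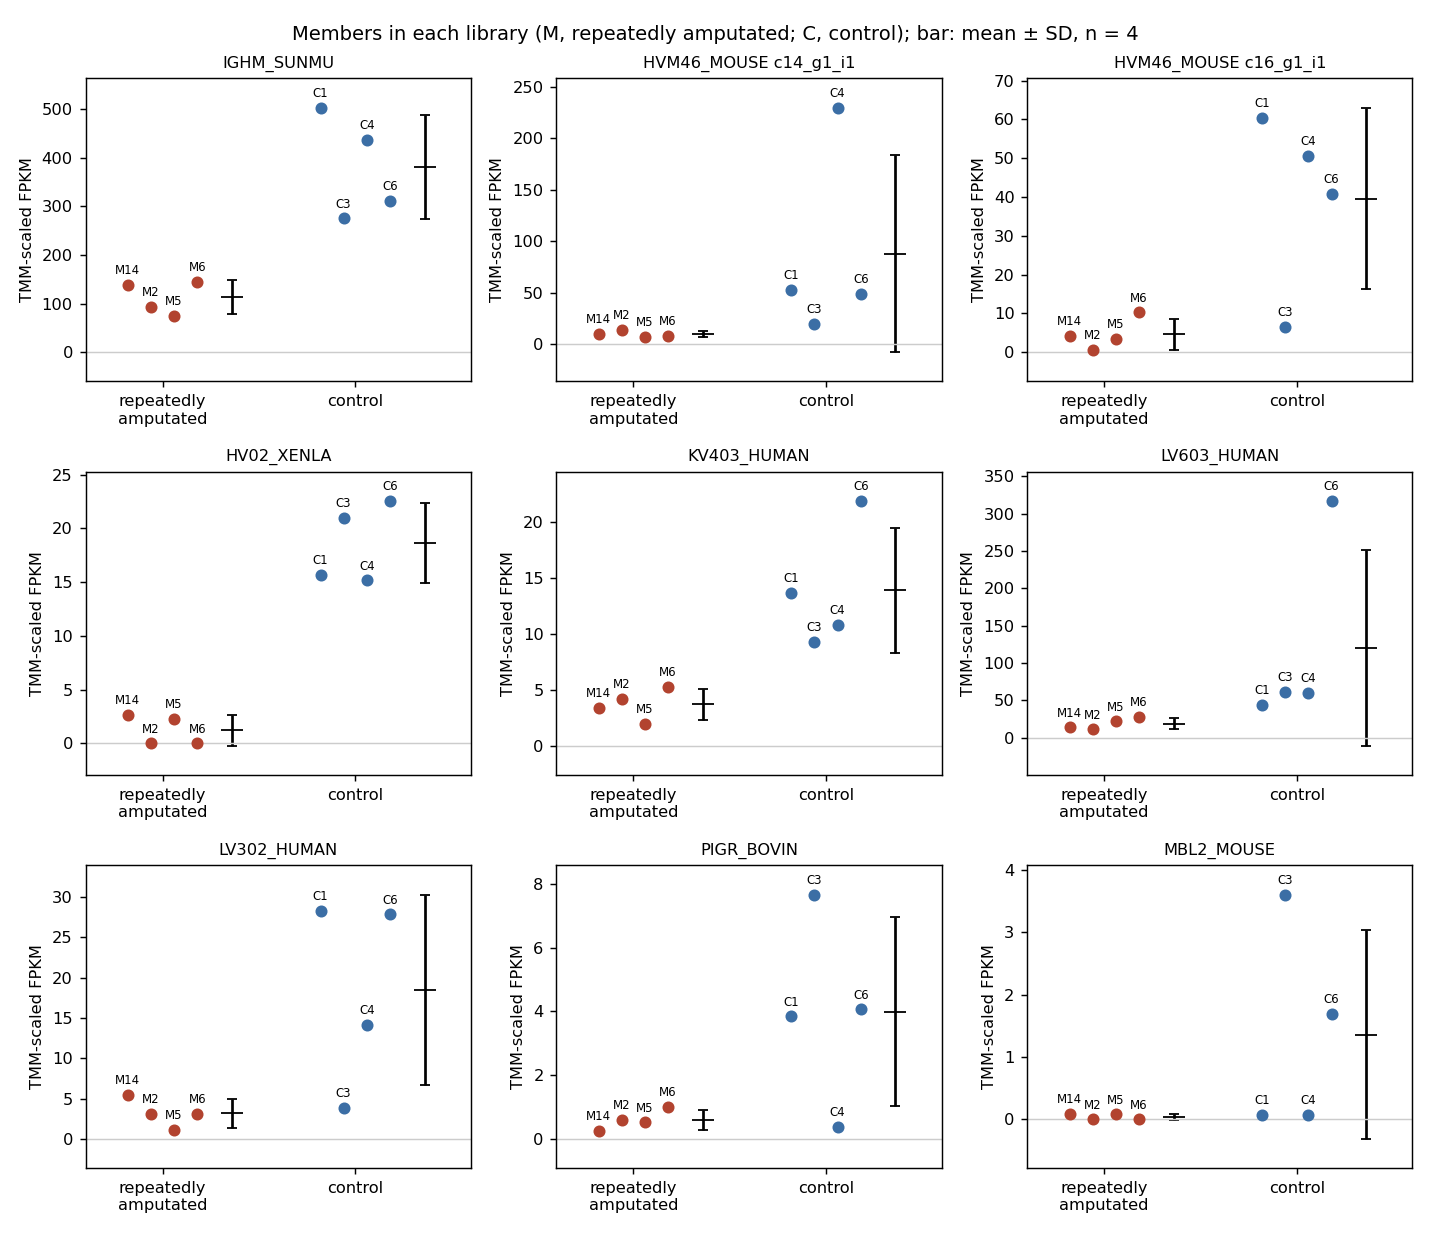
TMM-scaled FPKM of the 9 members in each library, repeatedly amputated limbs on the left of each panel (M) and control limbs on the right (C), each point 1 library and each bar the mean ± SD of 4 libraries. The mu chain transcript lay at 73.9 to 145 FPKM in repeatedly amputated limbs and 275 to 503 FPKM in control limbs, while PIGR_BOVIN and MBL2_MOUSE overlapped between the groups.

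The constant region of the mu chain was the most abundant member per length. IGHM_SUNMU measured 139, 93.0, 73.9 and 145 FPKM in repeatedly amputated limbs, against 503, 275, 436 and 311 FPKM in control limbs. The 2 groups did not overlap. The mean was 113 ± 34.9 FPKM in repeatedly amputated limbs and 382 ± 106 FPKM in control limbs (SD, n = 4 each), which is 3.38-fold lower. The fitted log2 fold change was -1.68 ± 0.27 (SE). By mean FPKM this transcript ranked 724th of 91843 in repeatedly amputated limbs and 280th in control limbs. It rested on 2323 to 4621 counts in repeatedly amputated limbs and 9403 to 15798 counts in control limbs and all of its counts were whole numbers.

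The 2 contigs named HVM46_MOUSE, a heavy chain variable region, differed in their highest control library, Control4 for one and Control1 for the other, and Control4 was high for both. The contig c14_g1_i1 had 10.2, 14.5, 7.46 and 8.31 FPKM in repeatedly amputated limbs, against 52.8, 20.2, 230 and 49.4 FPKM in control limbs. The groups did not overlap, and Control4 stood far above the other control libraries. The log2 fold change was -3.09 ± 0.77 (SE), or -1.91 without Control4. The contig c16_g1_i1 had 4.19, 0.652, 3.48 and 10.2 FPKM in repeatedly amputated limbs, against 60.4, 6.59, 50.7 and 40.9 FPKM in control limbs. Control3 fell below MR6 here, so the groups overlapped. The log2 fold change of this contig was -2.98 ± 0.86 (SE), or -3.72 without MR6 and -2.61 without MR2.

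HV02_XENLA, a heavy chain variable region with an effective length of 83.5 bases, had 2.64, 0, 2.28 and 0 FPKM in repeatedly amputated limbs, against 15.7, 21.0, 15.2 and 22.5 FPKM in control limbs. The groups did not overlap, and the 4 control libraries differed less among themselves, in proportion, than for any other chain. These values rest on few fragments, with 3.49, 0, 3.25 and 0 counts in repeatedly amputated limbs and 22.1, 32.3, 22.6 and 31.2 counts in control limbs. The log2 fold change was -3.91 ± 0.67 (SE), and it depended on how values near 0 were treated, with -5.19 on log2(FPKM + 0.1). RSEM divided fragments between this contig and TR10087 c1_g1_i1, as both had fractional counts in the same 6 libraries. The latter had 34.51, 24, 33.75 and 26 counts in repeatedly amputated limbs. In control limbs it had 202.93, 59.66, 88.45 and 45.8 counts, and its log2 fold change was -1.55 ± 0.45 (SE). The values near 0 and the even control values of HV02_XENLA depend on that division.

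Among the light chains, KV403_HUMAN, a kappa variable region, had 3.33, 4.17, 1.93 and 5.26 FPKM in repeatedly amputated limbs, against 13.6, 9.27, 10.8 and 21.8 FPKM in control limbs. The groups did not overlap. The log2 fold change was -1.83 ± 0.38 (SE), from 5 to 14 counts in repeatedly amputated limbs and 26 to 55 counts in control limbs.

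LV603_HUMAN, a lambda variable region, had 13.8, 10.9, 21.7 and 27.3 FPKM in repeatedly amputated limbs, against 44.3, 60.9, 59.5 and 316 FPKM in control limbs. The groups did not overlap, but Control6 alone held 65.8% of the FPKM of the control limbs. The log2 fold change was -2.63 ± 0.74 (SE), or -1.49 without Control6. LV302_HUMAN, the other lambda variable region, had 5.52, 3.06, 1.09 and 3.11 FPKM in repeatedly amputated limbs, against 28.2, 3.84, 14.1 and 27.8 FPKM in control limbs. Control3 lay within the range of the repeatedly amputated limbs. Here the log2 fold change was -2.48 ± 0.67 (SE).

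Both lambda members have a second isoform in the same assembled gene, and RSEM divided fragments between the isoforms in every library. Summed over the 2 isoforms, the LV603_HUMAN gene had 9.94, 5.38, 14.5 and 9.79 CPM in repeatedly amputated limbs, against 48.7, 21.6, 27.8 and 133 CPM in control limbs. The difference of mean log2 shares was -2.25 for the gene and -2.27 for the member isoform. The LV302_HUMAN gene had 3.78, 3.73, 1.18 and 2.89 CPM in repeatedly amputated limbs, against 11.9, 1.53, 9.87 and 9.96 CPM in control limbs. Its difference was -1.30 for the gene, with Control3 within the range of the repeatedly amputated limbs, and -2.36 for the member isoform. The member isoform took 19.1% to 34.1% of this gene's counts in repeatedly amputated limbs and 33.3% to 63.9% in control limbs.

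The proportion of variable regions to the mu chain varied between libraries. Per length, the 3 heavy chain variable regions summed to 12.3% to 17.9% of the FPKM of IGHM_SUNMU in repeatedly amputated limbs. In control limbs this proportion was 25.6% in Control1, 17.4% in Control3, 67.7% in Control4 and 36.2% in Control6. The 2 lambda members came to 13.9%, 15.1%, 30.8% and 20.9% of IGHM_SUNMU in repeatedly amputated limbs, against 14.4%, 23.5%, 16.9% and 111% in control limbs. Both proportions overlapped between the groups and were highest in a single control library, a different one for the heavy and for the lambda regions. The kappa member came to 2.40%, 4.49%, 2.61% and 3.62% of IGHM_SUNMU in repeatedly amputated limbs, against 2.71%, 3.37%, 2.47% and 7.01% in control limbs. Its group means lay closer, at 3.28% ± 0.97 in repeatedly amputated limbs and 3.89% ± 2.11 in control limbs (SD, n = 4 each). The kappa member made up 15.1% ± 6.20 of the summed FPKM of the kappa and lambda members in repeatedly amputated limbs and 11.8% ± 4.15 in control limbs (SD, n = 4 each), which is within the spread of either group. All these proportions cover only the members, which were chosen on the group difference. They do not measure the balance of all variable regions to the mu chain, or of all kappa to all lambda RNA.

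No control library was high for every chain. By CPM, Control6 was the highest control library for 4 of the 7 chains, Control1 for 2 and Control4 for 1. Control3 was the lowest of its group for 5 of the 7. Among repeatedly amputated limbs, MR6 was the highest for 4 chains and MR5 the lowest for 4. The biological coefficient of variation, edgeR's estimate of the spread between limbs beyond counting error, had a median of 0.649 over the 8 tested members (0.231 to 0.784), against 0.262 over all transcripts tested. HV02_XENLA, whose fragments RSEM divided with another contig, and IGHM_SUNMU were the least variable of the 8.

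Likeness of pattern was measured as the root mean square difference of log2 CPM over the 8 libraries, after each profile was centred on its own mean. The transcripts nearest to IGHM_SUNMU were TR16452 c0_g1_i1 (0.239), TR5672 c0_g1_i1 (0.311), TR9938 c0_g1_i1 (0.371), TR16569 c26_g1_i1 (0.376) and TR3131 c0_g1_i1 (0.380), none of which has an entry in the table. The median over the 32756 other transcripts tested was 0.981. Among the members, KV403_HUMAN was nearest to it (0.460, rank 27), and the other chains ran from 0.775 for LV302_HUMAN to 1.18 for HVM46_MOUSE c16_g1_i1. The second transcript in this order, TR5672 c0_g1_i1, belongs to the same read cluster as the lambda members. The order includes the group difference, and with profiles centred within each group this contig was not among the nearest 50. When profiles were centred within each group, so that the group difference dropped out, KV403_HUMAN had a distance of 0.459, against a median of 0.475. The other 5 chains were then between 0.723 and 1.03 away. Within the groups, no chain other than KV403_HUMAN came as near to the mu transcript as the median transcript did. This distance grows with a transcript's own spread, so it cannot show whether a chain followed the mu transcript from limb to limb.

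The Trinity assembly puts contigs whose reads connect into 1 numbered read cluster, and the 9 members fell into 5 clusters. The other 75 contigs of these clusters are not in the table, so the rule did not choose them. RSEM divided fragments between a member and each of TR10087 c1_g1_i1, TR5672 c8_g1_i2 and TR5672 c9_g1_i1, and may have done so for others. Such contigs are not independent of the members. Cluster TR10087 held all 4 heavy chain members with 14 other contigs, and cluster TR5672 held both lambda members with 20. KV403_HUMAN was in TR21555 with 38 other contigs, PIGR_BOVIN in TR14242 with 1 and MBL2_MOUSE in TR24625 with 2. No protein name is given here for these other contigs.

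Of the 75 other contigs, 51 passed the filter on low counts, of which 41 had a negative and 10 a positive log2 fold change. For 13 of the 51 the sign changed when 1 library was left out, among them TR10087 c11_g1_i1, with 1.03, or -1.59 without MR14, and TR5672 c7_g2_i1, with -1.86, or 0.14 without Control1. Their median was -0.90, against -0.01 over all transcripts tested. The quasi-likelihood test gave 14 of the 51 an unadjusted p under 0.05, 13 of them lower, where 4.67% of all transcripts tested were lower at that level. At an FDR of 0.05 it called 0 of the 51, while the exact test called 1 and DESeq2's Wald test 2. Of all 32757 transcripts tested, the exact test called 374 and the Wald test 768 in either direction, 94 and 197 of them lower. 1 of the 2 Wald calls was TR10087 c1_g1_i1, which shares fragments with HV02_XENLA. Nothing is read from these few calls. In TR5672, 16 of 17 tested contigs had a negative log2 fold change, with a median of -1.18. In TR10087 this was so for 10 of 13, with a median of -1.36. In TR21555 it was so for 14 of 20, but the median was -0.14. By these medians the contigs of TR10087 and TR5672 lay lower than those of TR21555, a difference that was not tested. KV403_HUMAN averaged 0.27% of the counts of TR21555 in repeatedly amputated limbs and 0.91% in control limbs. Whether the other contigs there are kappa sequence is not known here.

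**Figure D2:**
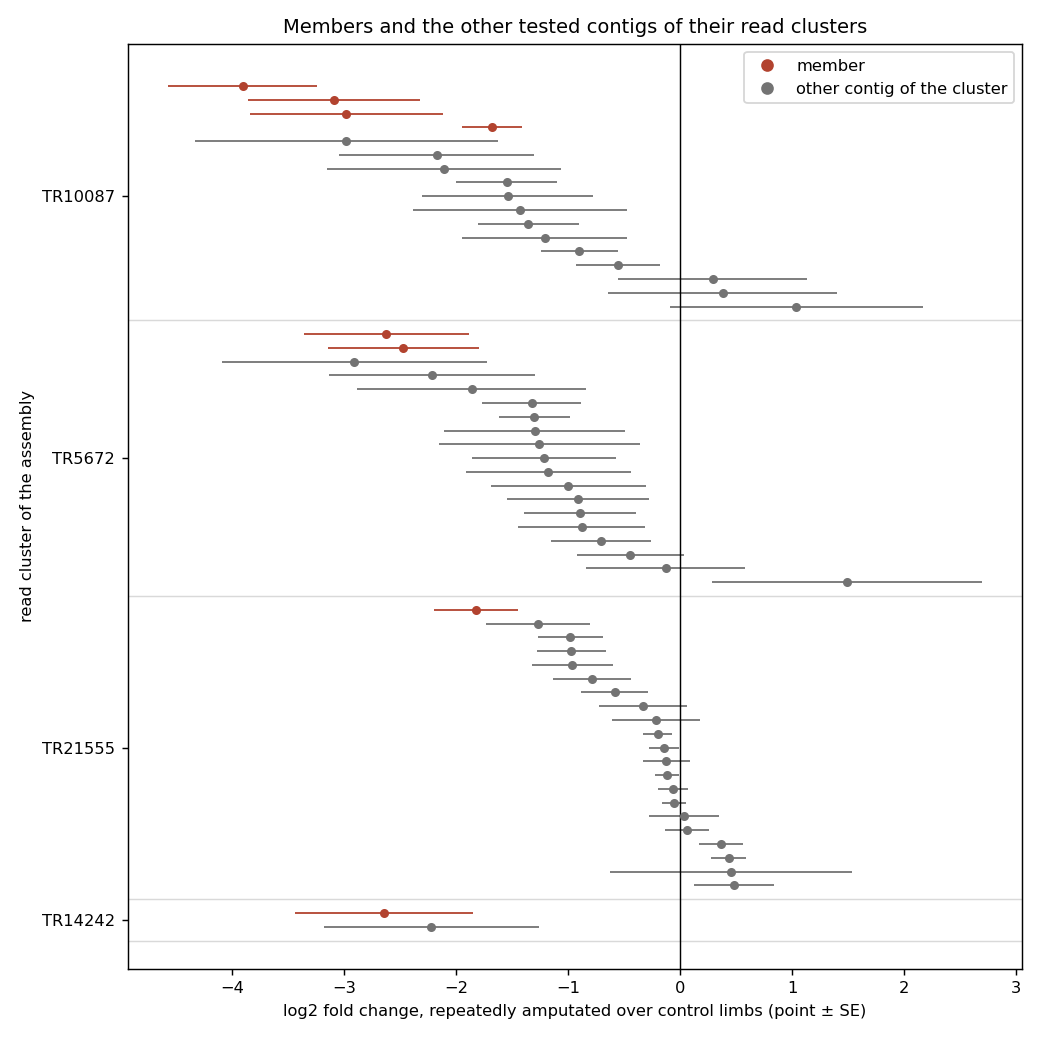
Fitted log2 fold change of repeatedly amputated over control limbs (horizontal axis, point ± SE) for the tested members in red and the other tested contigs of the same read clusters in grey, with clusters down the page. Of the 51 grey points, 41 lie left of 0, and those of TR21555 centre near 0 (median -0.14).

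Summed over the other contigs, TR5672 held 683, 317, 297 and 455 CPM in repeatedly amputated limbs, against 1493, 748, 1033 and 1061 CPM in control limbs. Every repeatedly amputated limb lay below every control limb. The difference was -1.35 on the log2 scale (exact two-sided permutation test, p = 0.0286, the smallest that the 70 arrangements of 8 libraries can give, and 0.143 after Benjamini-Hochberg adjustment over the 5 clusters). The other contigs of TR10087 summed to 593, 251, 229 and 279 CPM in repeatedly amputated limbs, against 699, 419, 615 and 966 CPM in control limbs. MR14 lay above Control3, so these groups overlapped. The difference was -1.05 (exact two-sided permutation test, p = 0.0571, adjusted 0.143). For TR21555 the difference was -0.15, at 200 ± 14.6 CPM in repeatedly amputated limbs and 223 ± 23.5 CPM in control limbs (exact two-sided permutation test, p = 0.229, adjusted 0.286, n = 4 each). For the other contigs beside PIGR_BOVIN and MBL2_MOUSE the same test gave p = 0.114 and 0.429 (exact). None of the 5 sums passed the adjustment.

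**Figure D3:**
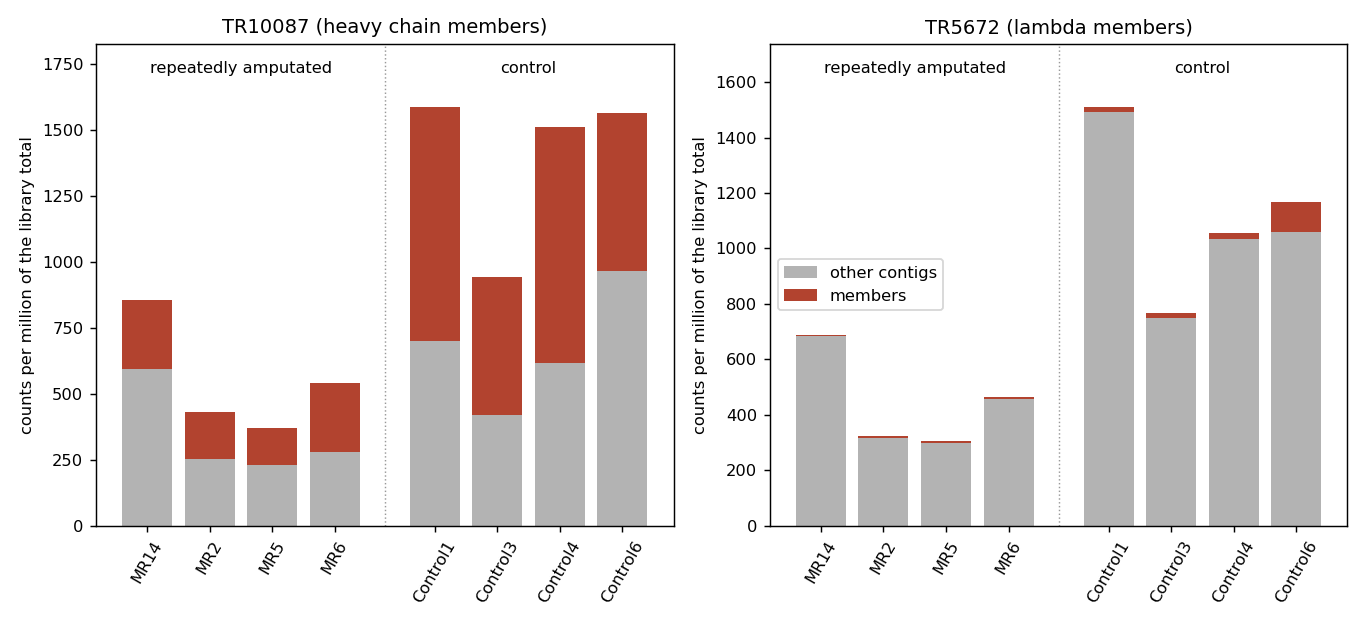
CPM of the library total (vertical axis) for the members (red) and the other contigs (grey) of the heavy chain cluster TR10087 and the lambda cluster TR5672, 1 bar per library, with repeatedly amputated limbs on the left of each panel. The members are a large part of TR10087 (IGHM_SUNMU alone averages 38.8% of it in repeatedly amputated limbs and 49.7% in control limbs) and a small part of TR5672.

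Most of the counts of these sums came from 3 contigs, named here after their values were seen. TR10087 c13_g1_i1 had 7734, 3625, 3501 and 4525 counts in repeatedly amputated limbs, against 9853, 6958, 8744 and 14575 counts in control limbs, with MR14 above Control3. The fitted log2 fold change was -0.90 ± 0.35 (SE; quasi-likelihood FDR 0.394). TR5672 c0_g1_i1 had 4872, 3025, 3103 and 5679 counts in repeatedly amputated limbs, against 19205, 8398, 9444 and 9119 counts in control limbs, without overlap. The fit gave a log2 fold change of -1.30 ± 0.32 (SE), with an FDR of 0.281 in edgeR's quasi-likelihood test, 0.0345 in its exact test and 0.0058 in DESeq2's Wald test. TR5672 c0_g2_i1 had 3559, 1116, 1111 and 1234 counts in repeatedly amputated limbs, against 4782, 3946, 4676 and 6348 counts in control limbs. Its groups did not overlap in counts but did in the CPM scaled for the test. Its log2 fold change was -1.33 ± 0.45 (SE; quasi-likelihood FDR 0.355), or -1.97 without MR14 and -1.15 without Control6. The last 2 contigs had fractional counts in all 8 libraries, which added to whole numbers, so RSEM divided fragments between them. Their separate values and test results depend on that division.

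How RSEM divided fragments can be seen in the contigs TR10087 c2_g1_i1 and c2_g2_i1. In repeatedly amputated limbs both had the same counts, 29, 17.5, 25.5 and 19. In control limbs c2_g2_i1 had 675, 0, 67.5 and 95.4 counts, while c2_g1_i1 had 0, 49, 22.5 and 13.6. The log2 fold changes were -2.98 for c2_g2_i1 and 0.29 for c2_g1_i1, with SEs of 1.35 and 0.84. Without Control1 they were -1.14 and -0.12, so the direction of c2_g1_i1 rests on that library. Of the 9 members, 6 had whole counts in every library, and the exceptions were HV02_XENLA, LV603_HUMAN and LV302_HUMAN.

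PIGR_BOVIN, the receptor that carries IgM and IgA across epithelia, had 0.255, 0.613, 0.522 and 1.00 FPKM in repeatedly amputated limbs, against 3.85, 7.66, 0.392 and 4.06 FPKM in control limbs. Control4 lay within the range of the repeatedly amputated limbs, and Control3 was the highest library. The underlying counts were 8, 20, 18 and 35 in repeatedly amputated limbs and 133, 288, 14 and 137 in control limbs. The log2 fold change was -2.65 ± 0.80 (SE), or -1.40 on log2(FPKM + 1), a scale that understates the change of low transcripts. The other contig of its cluster, TR14242 c1_g1_i1, had 5, 26, 28 and 86 counts in repeatedly amputated limbs, against 162, 391, 18 and 185 counts in control limbs. It had the same highest and lowest control library as the receptor, and its log2 fold change was -2.22 ± 0.96 (SE; quasi-likelihood unadjusted p = 0.04996, FDR 0.449), or -3.06 without MR6 and -1.64 without Control3. It was also the nearest of the 32756 other transcripts tested to PIGR_BOVIN, at a distance of 0.453 (median 1.61), a profile compared after its values were seen. The nearest table entries with a protein name were the keratin K2C5_XENLA (0.725, rank 7), LITAF_HUMAN (0.742, rank 9) and the fucolectin FUCL5_ANGJA (0.807, rank 13). Of the chains, KV403_HUMAN was the closest to the receptor, at 1.19. These distances include the group difference on which the receptor and the table entries were selected. With profiles centred within each group, TR14242 c1_g1_i1 was at 0.452 (rank 7), LITAF_HUMAN at 0.713 (rank 101) and K2C5_XENLA at 0.719 (rank 110). KV403_HUMAN was then at 1.17, against a median of 1.21.

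MBL2_MOUSE, the lectin, was found mainly in 2 control libraries. It had 1, 0, 1 and 0 counts in repeatedly amputated limbs, against 1, 50, 1 and 21 counts in control limbs, so Control1 and Control4 were as low as the repeatedly amputated limbs. It did not pass the filter on low counts and has no fitted fold change. Against a floor of 3 counts per library, the repeatedly amputated limbs were at least 5.38-fold lower, and the bound without Control3 was 2.43-fold. Control3 and Control6 held 94.3% of its FPKM over the 8 libraries. The other contigs of its cluster had the same pattern, with 26 counts in Control3, 9 in Control6 and 0 elsewhere for TR24625 c2_g1_i1. For TR24625 c0_g1_i1 the counts were 9 in Control3 and 3 in Control6, with 1 each in MR2 and MR5.

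The receptor and the lectin were highest in Control3, which among the 4 control libraries was the lowest for 5 of the 7 chains. The 2 keratin entries summed to 104 to 221 CPM in repeatedly amputated limbs, against 1156, 3970, 1365 and 884 CPM in control limbs, with Control3 the highest. Within this sum, K2C5_XENLA was highest in Control3, at 1089 FPKM, while K2C6A_MOUSE was highest in Control4, at 332 FPKM against 204 FPKM in Control3. Over the whole table, 188 of the 912 entries were lower in repeatedly amputated limbs. The 7 mucin entries, all secreted or surface mucus proteins, were divided, with 4 lower and 3 higher in repeatedly amputated limbs. They summed to 8.21, 33.9, 293 and 5.28 CPM in repeatedly amputated limbs, against 14.9, 125, 6.76 and 29.5 CPM in control limbs. The 4 lower mucins were highest in Control3. Of the control libraries, the 3 higher ones, all of the read cluster TR26414, were highest in Control1. Of 15 keratin, mucin, lectin and defence entries that were lower, 9 had more than 90% of their FPKM in Control3 and Control6, as MBL2_MOUSE did. These 2 libraries are those in which MBL2_MOUSE was mainly found, with 94.3% of its FPKM, while PIGR_BOVIN had 63.9% there. The same count is not given here for the 188 lower entries or for all transcripts, so nothing is read from it. BPIB2_HUMAN, a secreted protein of the BPI fold family, had 0, 0, 0.039 and 0.072 FPKM in repeatedly amputated limbs, against 0.032, 52.5, 0 and 13.4 FPKM in control limbs. None of the 7 chains had more than 90% of its FPKM in Control3 and Control6. The part of the skin and mucous cell transcripts in the level of the receptor and the lectin was not tested.

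**Figure D4:**
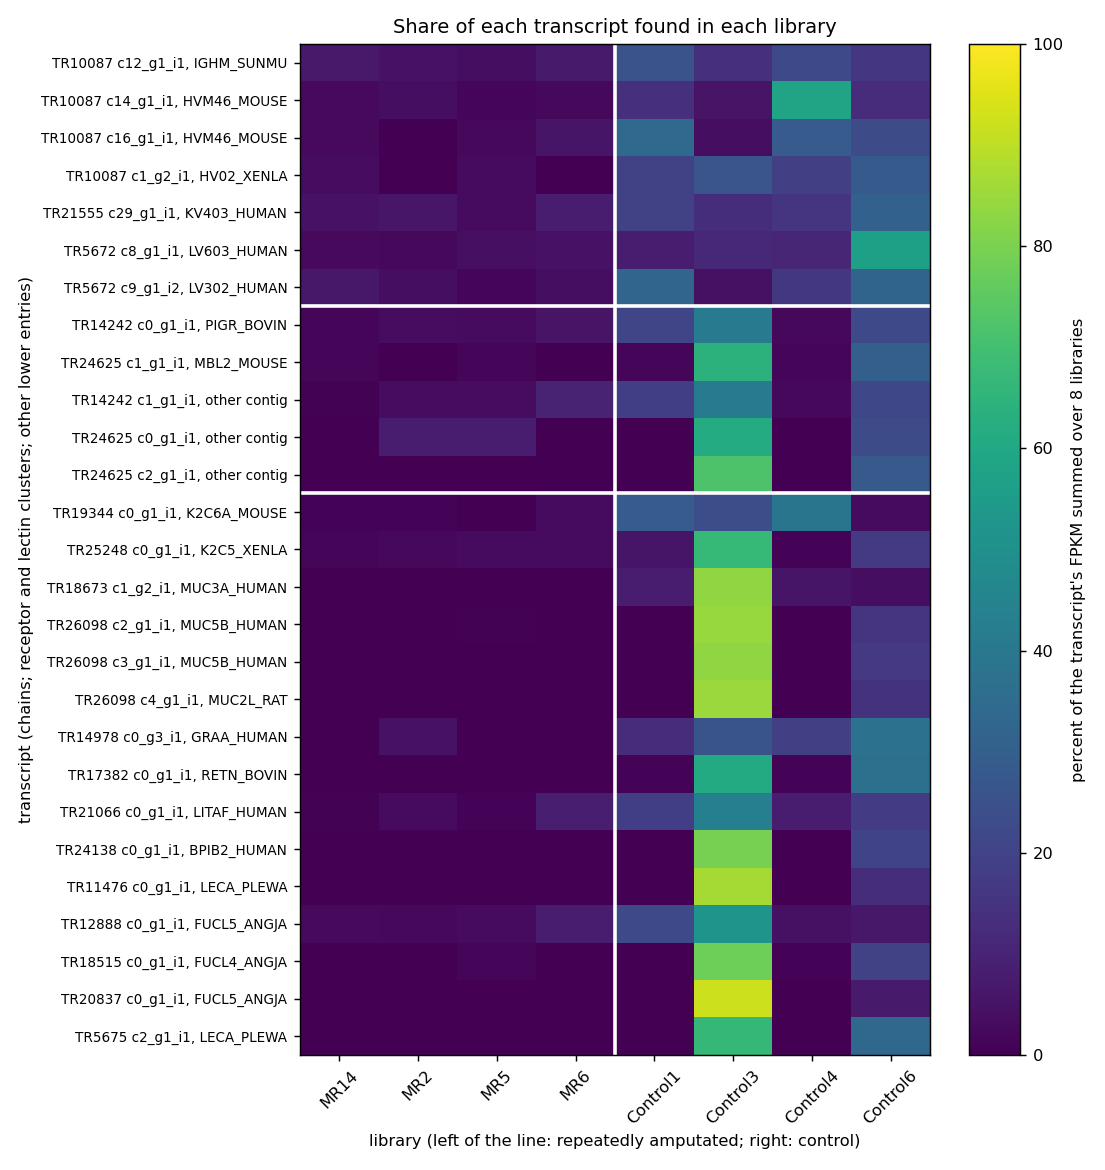
Percent of each transcript's FPKM, summed over the 8 libraries, that was found in each library (colour), repeatedly amputated limbs left of the vertical line and control limbs right of it. None of the 7 chains at the top has more than 90% in Control3 and Control6. HVM46_MOUSE c14_g1_i1 has 58.5% in Control4 and LV603_HUMAN 57.0% in Control6. MBL2_MOUSE and 9 of the 15 other lower entries lie more than 90% in Control3 and Control6, and PIGR_BOVIN has 63.9% there. No such share is given for all transcripts.

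Other immune entries of the table did not share 1 direction. Of 10 entries for leukocyte, cytokine and secreted defence proteins, 4 were lower and 6 higher in repeatedly amputated limbs, and of 7 lectin entries 5 were lower and 2 higher. Over the whole table, 188 of the 912 entries were lower. The T-cell and natural killer cell protease granzyme A (GRAA_HUMAN) had 0, 0.808, 0 and 0 FPKM in repeatedly amputated limbs, against 2.12, 4.39, 3.16 and 6.35 FPKM in control limbs, without overlap. GIMA4_HUMAN was on the other side, with 32.7, 22.6, 13.7 and 10.6 FPKM in repeatedly amputated limbs, against 3.68, 0.039, 0.196 and 0.01 FPKM in control limbs, without overlap. The neutrophil-attracting chemokine IL8_CHICK was also higher, with 2.34, 2.60, 7.75 and 6.27 FPKM in repeatedly amputated limbs and 0.697, 0.961, 1.88 and 0.649 FPKM in control limbs. SDF1_XENLA, a chemokine that guides leukocytes, had 3.62, 2.32, 5.17 and 5.11 FPKM in repeatedly amputated limbs, against 1.11, 1.05, 1.13 and 0.719 FPKM in control limbs. BCL6_CHICK, a transcriptional repressor that germinal-centre B cells need and other cells also express, was opposite to the chains. It had 3.08, 0.973, 0.828 and 2.51 FPKM in repeatedly amputated limbs, against 0.547, 0.804, 0.402 and 0.439 FPKM in control limbs, without overlap. These entries were selected on the same contrast as the members.

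Transcripts of muscle also differed between the libraries. The 97 muscle entries were all higher in repeatedly amputated limbs, while 188 of the 912 entries of the table were lower. The muscle entries summed to 9490, 2729, 13024 and 569 CPM in repeatedly amputated limbs, against 93.2, 292, 1211 and 100 CPM in control limbs. MR5, with the most muscle RNA, had the lowest chain sum (148 CPM), while MR14, the next in muscle RNA, had 270 CPM, close to the 272 CPM of MR6, which had the least muscle RNA of the group. For the chain sum, every repeatedly amputated limb lay below every control limb. The part of muscle RNA in the chain difference was not tested.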

How the data were processed

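Paired-end reads were assembled de novo by the authors with Trinity, annotated with Trinotate and quantified with RSEM, and an FPKM threshold was applied to the assembly. The submitters' processing notes also name CASAVA 1.8.2. The authors deposited RSEM expected counts per transcript, which are not normalized and of which 91.5% were whole numbers. The authors also deposited FPKM values, scaled between libraries by TMM. No genome was used, so no positions are given. Columns name the group but not the animal. The members and all lists were chosen with earlier results of these data known, and the lists come from a table the study made from these libraries.

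Expected counts were rounded, filtered with filterByExpr (32757 transcripts kept), scaled by TMM and fitted with edgeR 4.0.16 (robust quasi-likelihood, R 4.3.3), with Benjamini-Hochberg adjustment over all transcripts tested. Standard errors come from the F statistic. Sums are CPM of the unscaled library total, compared on the log2 scale by exact permutation (SciPy 1.17.1), with 0.1 added to sums that hold a 0. Profile distances were taken on log2 CPM (prior count 2). All 9 members were named. Other contigs were named where at most 10 of a cluster passed the filter, and any further one was chosen after its values were seen. Alternatives were DESeq2 1.42.0, edgeR's exact test, limma 3.58.1 (voom and log2 FPKM), other normalizations and filters, and each library left out. The count tests were first run on simulated counts, drawn with the spread between limbs that edgeR estimated. RSEM's division of fragments was not simulated, and nothing is read from that run here. Depth was 15596527 to 18437103 counts per library. Floors of 3 counts cover counting error only.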

Additional observations from a re-analysis of the deposited data

Results flagged for a closer look

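In 42 groups of 4 libraries examined (members, sums and single contigs of the read clusters), 8 had 1 library whose gap to the nearest other exceeded Dixon's critical share of the group's range at the 95% level. Chance alone gives about 1 in 20 for independent, normally distributed values. Here CPM were not log-transformed and some sums hold contigs that were also examined singly, so that rate need not hold. The single contigs were chosen after their values were seen. Values are CPM.

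Among the members, HVM46_MOUSE c14_g1_i1 reached 68.5 CPM in Control4, against 14.2 CPM in the next control library, and LV603_HUMAN reached 99.0 CPM in Control6, against 19.3 CPM in the next. In repeatedly amputated limbs, MR14 stood apart in the lambda and heavy chain clusters. The other contigs of TR10087 summed to 593 CPM in MR14, against 279 CPM in the next library. TR5672 c0_g2_i1 had 230 CPM there against 73.8 CPM, TR5672 c14_g1_i1 had 74.1 CPM against 2.99 CPM, and TR10087 c11_g1_i1 had 17.8 CPM against 1.07 CPM. In control limbs, TR10087 c2_g2_i1 had 36.1 CPM in Control1, against 5.67 CPM in the next library, and TR5672 c11_g1_i1 had 87.8 CPM in Control4, against 9.63 CPM.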

How the results depend on the processing

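No member with a fitted fold change and no chain sum reversed its direction under any alternative run. Nor did the sums of other contigs of TR10087, TR5672, TR14242 and TR21555. MBL2_MOUSE and the sum of other contigs of TR24625 are not covered by this statement. The members were chosen as different between the groups in these same libraries, so the unchanged direction of the members and the chain sum is no independent support. Of the 51 other contigs tested singly, 13 reversed with a library left out, and 5 of these also in an alternative with all 8 libraries. Among them, TR10087 c2_g1_i1 ran between -0.12 and 1.04 with a library left out. The chain sum differed by -2.64 on the log2 scale without IGHM_SUNMU, and by -1.99 to -1.66 with each library left out in turn. The count of members at an FDR of 0.05 was 0 in the quasi-likelihood test, 6 in edgeR's exact test, 7 in DESeq2's Wald test and 0 with each library left out. For the other contigs of the read clusters these counts were 0, 1, 2 and 0, and the percent of tested contigs that were lower ran between 74.5 and 84.6 with a library left out. Of 136 alternative fold changes of single members, 133 stayed within 1 SD of the value reported, and the other 3 were HVM46_MOUSE c14_g1_i1 without Control4, LV603_HUMAN without Control6 and HV02_XENLA on log2(FPKM + 0.1). This SD is the spread of log2(CPM + 0.1) between libraries of a group, not an error of the fold change. The band is wide, and PIGR_BOVIN stayed within it at -1.40 against the reported -2.65. Leaving out a library moved the difference for the other contigs of TR5672 between -1.59 and -1.18, and for those of TR10087 between -1.36 and -0.85. These sums, the isoform sums, the bound for MBL2_MOUSE without a library, and the limma, upper-quartile and minimum-count alternatives for single other contigs were added after the data were seen. No paired analysis was possible because the columns carry no replicate label shared between the groups. With 4 limbs per group, the members' spread and the few counts of HV02_XENLA, KV403_HUMAN and MBL2_MOUSE limit what can be told of single transcripts.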
